A study of Mus musculus with 6 samples.

Results

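Bile acid synthesis, transport and their control by the nuclear receptors FXR and SHP were examined in livers of wildtype (Dnajb4+/+) mice and mice that lack HLJ1 (Dnajb4-/-) as a list of 37 genes. A gene was taken from the Affymetrix mouse array through the probe sets, groups of oligonucleotides against a transcript, that carry its symbol and no other. This gave 36 of the 37 genes with 63 probe sets, out of 18193 genes measured. Gpbar1, the membrane receptor for bile acids, had no such probe set and was not analysed here. By the labels, each genotype had 3 male C57BL/6 mice aged 6 to 8 weeks, with 1 array of total liver RNA per mouse and no treatment named. How the knockout allele was made, and whether the controls were littermates, is not given in the sources used here. HLJ1 is the heat shock protein encoded by Dnajb4.

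Hepatocytes turn cholesterol into bile acids, join them to taurine or glycine and pump them across the canalicular membrane into bile. Most return from the ileum by the portal blood and are taken up again at the basolateral membrane. Bile acids bind FXR (Nr1h4), which induces SHP (Nr0b2), a nuclear receptor without a DNA-binding domain that represses Cyp7a1, the rate-limiting enzyme of the classic pathway. A second signal comes from the ileal hormone FGF15, which acts on hepatocytes through the receptor Fgfr4 and its partner beta-Klotho (Klb).

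In Dnajb4-/- livers, Cyp7a1 was 3.33-fold lower and Nr0b2 was 2.12-fold higher than in Dnajb4+/+ livers, while Nr1h4 was 1.44-fold lower. The sterol exporters Abcg5 and Abcg8 and the uptake carrier Slco1a4 fell, and the oxysterol hydroxylase Cyp7b1, the apical bile acid carrier Slc10a2 and the flippase Atp8b1 rose. Of the 36 measured genes, 5 rose, 10 fell and 21 missed the threshold (limma on log2 values, Benjamini-Hochberg adjusted p under 0.05 over all 18193 genes). The share called was 41.7%, against 14.7% of all genes (5.09% higher and 9.57% lower). Brighter genes were called more often, and 28 of the 36 lay in the upper quartile of signal. Of these 28 genes 14 were called, and 30.8% of all genes of that quartile were. The median log2 difference of the 36 genes was -0.0074, and that of all genes was 0.0075. Log2 differences are given as Dnajb4-/- minus Dnajb4+/+ throughout.

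The labels and the values disagree in one respect that touches every comparison. Xist, the RNA that silences an X chromosome in female cells, read 364 to 402 with Dnajb4+/+ and 14.3 to 17.1 with Dnajb4-/- (linear intensities), although all mice are labelled male. Of the Y-linked genes, Eif2s3y read 62.6 to 72.3 in Dnajb4+/+ and 77.4 to 81.3 in Dnajb4-/- livers, and Kdm5d and Uty read below the array medians in both. A list of female-biased liver genes fell in Dnajb4-/- livers in 14 of 14 cases, and a list of male-biased ones, Cyp7b1 among them, rose in 9 of 14. As all 3 Dnajb4+/+ arrays are alike in this, no comparison without them was possible, and female RNA in these arrays and the genotype cannot be told apart. Of 18 clock genes, 12 fell and 5 rose. The ratio of 3' to 5' signal of Gapdh, a sign of RNA integrity, was 1.16 to 1.19 in Dnajb4+/+ and 1.43 to 1.48 in Dnajb4-/- arrays. That of Actb was 2.59 to 2.68 and 3.10 to 3.22. As neither ratio overlaps between the genotypes, RNA integrity and genotype cannot be told apart. Averaged over 3 probe sets, Dnajb4 itself read 132 to 143 and 117 to 130 and missed the threshold (adjusted p = 0.145), while its brightest probe set fell from 589 to 466 (adjusted p = 0.00768). Where these probe sets lie relative to the targeted sequence was not examined. Hepatocyte markers were strong in all arrays, with summed values of 113614 to 114301 and 112318 to 113126, and 3 of 7 were called (Apob and Hnf4a higher, Tat lower). Among markers of Kupffer cells and macrophages 7 of 8 fell (summed values 4378 to 4590 against 3345 to 3499), of endothelial cells 4 of 7 and of skeletal muscle 8 of 8 (641 to 705 against 270 to 298), and none of 8 stellate cell markers was called. In whole liver, fewer cells of a type and less RNA per cell cannot be told apart. The labels name no batch, litter or pooling, and p-values measure only the spread between these arrays.

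RefSeq promoter windows of GRCm38.p6, which span 250 bases before a start site and 50 bases from it, were at hand for 28 of the 37 genes. None was at hand for Cyp7a1, Cyp7b1, Cyp39a1, Amacr, Hsd17b4, Slc27a5, Baat, Atp8b1 or Abcc3, so these promoters were not searched for any motif. The windows of Nr0b2, the gene with the largest rise, and of Abcg8, which fell together with its neighbour Abcg5, are shown. The Nr0b2 window lies at chr4:133553126-133553425 on the plus strand, with a match to the STAT5 motif TTCNNNGAA in capitals. The Abcg8 window lies at chr17:84682871-84683170 on the plus strand. Its capitals mark the 111 bases from the Abcg5 start site, on the minus strand, to this Abcg8 start site, which lie 110 bases apart, so that the genes are read away from each other.
Nr0b2: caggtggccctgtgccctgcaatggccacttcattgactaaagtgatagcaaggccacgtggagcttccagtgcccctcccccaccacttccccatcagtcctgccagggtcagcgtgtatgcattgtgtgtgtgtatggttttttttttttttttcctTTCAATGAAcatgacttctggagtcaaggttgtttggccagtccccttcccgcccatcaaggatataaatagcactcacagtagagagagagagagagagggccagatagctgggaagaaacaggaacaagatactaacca
Abcg8: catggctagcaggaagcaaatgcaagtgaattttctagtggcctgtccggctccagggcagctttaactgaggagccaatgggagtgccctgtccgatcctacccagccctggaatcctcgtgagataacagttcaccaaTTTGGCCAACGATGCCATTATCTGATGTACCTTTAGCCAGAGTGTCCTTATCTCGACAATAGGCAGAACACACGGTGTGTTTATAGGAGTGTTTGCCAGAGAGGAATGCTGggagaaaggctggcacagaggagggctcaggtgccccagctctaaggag
The windows of Abcg5 and Abcg8 share 209 bases. The annotation gives Abcg8 a second start site, outside the window shown. The motif TTCNNNGAA, which reads the same on both strands apart from its free bases, was found in 8 of the 35 windows of these genes and in 8.30% of all 32851 windows. The 8 windows belong to 7 genes, namely Nr0b2 (1 of 3 genes called higher), none of 6 called lower and 6 of 18 not called. The core of the FXR inverted repeat (GTCANTGAC, in 0.387% of all windows), the NR5A2 site (CAAGGTCA, 1.56%) and the D-box (TTATGTAA, 0.938%) were searched on both strands and had no match in the windows of these 28 genes. A match describes letters in a window and is not a measured binding site.

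Among the nuclear receptors and other regulators, 1 of 6 measured genes rose and 2 fell (50% called, against 14.7% of all genes). Nr0b2, which encodes SHP, read 349, 313 and 359.8 in the 3 Dnajb4+/+ livers and 698, 739.6 and 729 in the 3 Dnajb4-/- livers. Every Dnajb4-/- value lay well above every Dnajb4+/+ value. The log2 difference was 1.09 (SE, its standard error, 0.06; adjusted p = 8.42e-05 from limma).
Nr1h4, which encodes the bile acid receptor FXR, moved the other way. It read 1358, 1321 and 1391 in Dnajb4+/+ and 914, 961 and 943 in Dnajb4-/- livers, with no overlap. The log2 difference was -0.53 (SE 0.04, adjusted p = 3.76e-04). Both genes have a single probe set, so their opposite directions could not be checked on another probe set.
Klb, the partner of Fgfr4 in the FGF15 signal, differed by -0.17 (66.7 ± 1.10 against 59.4 ± 0.231, SD, n = 3; adjusted p = 0.0232). Its call rests on a single probe set, which fell from 470.0 to 379.7, while the other stayed at 9.50 and 9.32. Averaging both understates the change, which was -0.31 on the brighter probe set (adjusted p = 0.0142 over all probe sets). The call was lost when any 1 of the 6 arrays was left out (adjusted p up to 0.0728).
Nr5a2, the liver receptor homolog that activates Cyp7a1 and Cyp8b1, differed by 0.11 (adjusted p = 0.0941). Its 3 Dnajb4-/- values, 215 to 222, lay above the Dnajb4+/+ values of 201 to 205. On its brightest probe set the difference was 0.25 (adjusted p = 0.0181 over all probe sets), and those of its 3 other probe sets ranged from 0.018 to 0.091 without a call. Fgfr4, the FGF15 receptor, differed by 0.043 (95% interval -0.07 to 0.16), and Vdr, the vitamin D receptor that also binds lithocholic acid, by -0.020 (95% interval -0.17 to 0.13). Vdr read 15.7 to 17.7 in all arrays, below the array medians of 31.8 to 32.5.

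**Figure D1:**
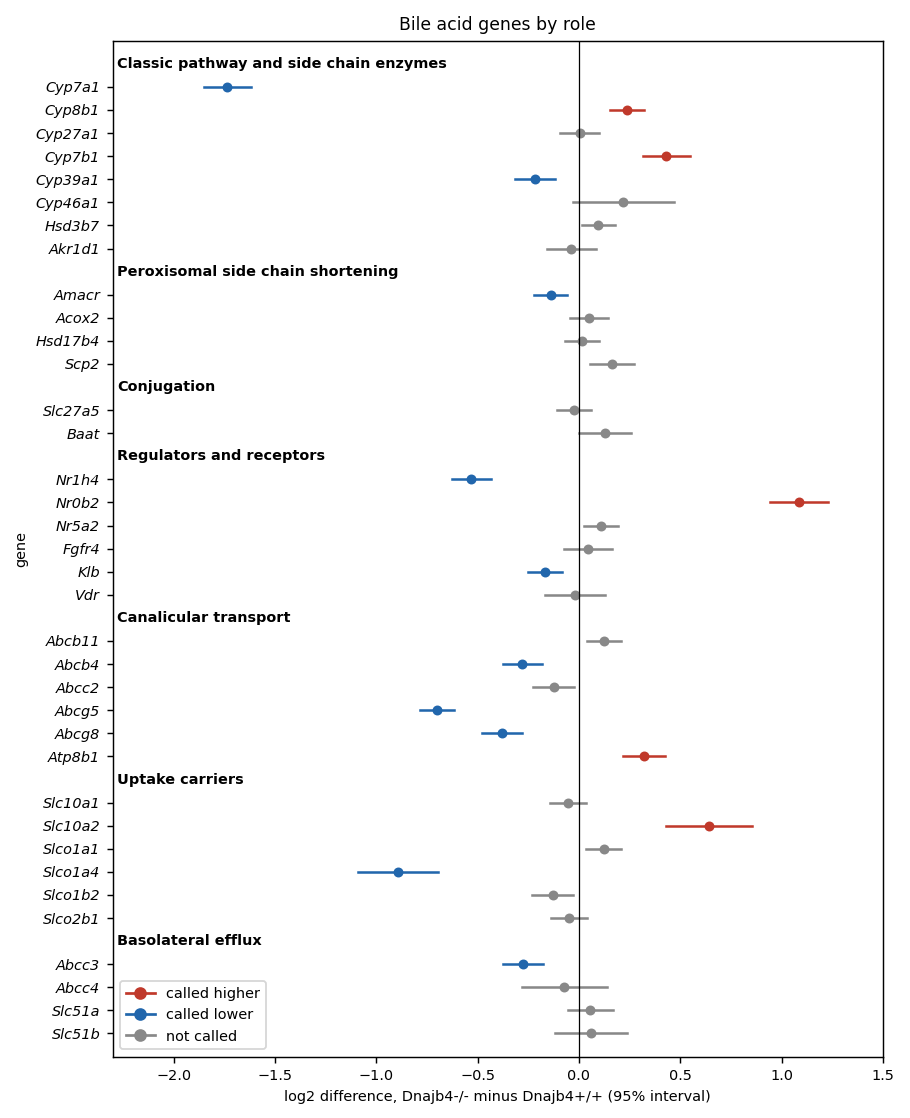
Log2 difference (x axis, Dnajb4-/- minus Dnajb4+/+) of each of the 36 measured bile acid genes (y axis, grouped by role), with its 95% interval from limma and 3 arrays per genotype. Cyp7a1 at -1.73 and Nr0b2 at 1.09 lie farthest from 0, and both directions occur among synthesis enzymes, regulators, canalicular and uptake carriers.

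Among 8 enzymes that modify the sterol ring or start side chain oxidation, 2 rose and 2 fell (50% called, against 14.7% of all genes). The enzymes that set the rate and the product of the classic pathway moved in opposite directions. Cyp7a1 read 899.5, 909 and 954 in Dnajb4+/+ livers and 263, 288 and 279.7 in Dnajb4-/- livers. The groups were far apart, at a log2 difference of -1.73 (SE 0.05, adjusted p = 3.99e-06 from limma). Both Cyp7a1 probe sets fell, one from 2089 to 520 (log2 difference -2.01) and the other from 406 to 147 (-1.46).
Cyp8b1, the sterol 12-alpha-hydroxylase that directs synthesis to cholic acid, read 3505, 3508 and 3532 in Dnajb4+/+ and 4056, 4207 and 4173 in Dnajb4-/- livers. It rose by 17.9%, a log2 difference of 0.24 (SE 0.04, adjusted p = 0.00637). The groups did not overlap, and the size is small beside that of Cyp7a1. The log2 ratio of Cyp7a1 to Cyp8b1 within an array differed by -1.97 between the genotypes (two-sided exact permutation test, p = 0.1, the smallest that 3 arrays against 3 allow; adjusted p = 0.125 over 5 ratios, which were chosen after their genes' values were seen).
Cyp7b1, the 7-alpha-hydroxylase of oxysterols in the alternative pathway, is known to be higher in male than in female mouse liver. It read 677, 638 and 681 in Dnajb4+/+ and 939, 889 and 863 in Dnajb4-/- livers, so that all Dnajb4-/- values were higher. The log2 difference was 0.43 (SE 0.05, adjusted p = 0.00181). This average includes a probe set at 7.96 and 8.80 that did not pass. The other 2 rose by more, from 7237 to 10196 (0.49) and from 5134 to 8108 (0.66).
Cyp39a1, the 7-alpha-hydroxylase of 24-hydroxycholesterol, fell from 482 ± 14.1 to 416 ± 10.5 (SD, n = 3; log2 difference -0.22, adjusted p = 0.0165). This call was lost without Dnajb4+/+ replicate 1 (adjusted p = 0.0631) or without Dnajb4-/- replicate 1 or 3 (0.0558 and 0.0547).
The remaining enzymes did not pass the test. Cyp27a1, the mitochondrial sterol 27-hydroxylase that opens the alternative pathway, differed by 0.0049 (95% interval -0.09 to 0.10). It averages a probe set at 4121 and 3992 with a dim one at 4.90 and 5.10, and the brighter one alone differed by -0.046 (adjusted p = 0.547 over all probe sets). Hsd3b7, the 3-beta-hydroxysteroid dehydrogenase that follows the 7-alpha-hydroxylases, read 7188 to 7368 in Dnajb4+/+ and 7754 to 7812 in Dnajb4-/- livers, a log2 difference of 0.097 that did not pass (adjusted p = 0.118) although the groups did not overlap.
Akr1d1, the 5-beta-reductase, differed by -0.037 on average (adjusted p = 0.686), but its probe sets disagreed. One fell from 841 to 713 (-0.24, adjusted p = 0.0160 over all probe sets), and the other read 1078 and 1209 (0.16, adjusted p = 0.231). Cyp46a1, the cholesterol 24-hydroxylase known from brain, read 24.2 to 35.1 in all arrays and differed by 0.22 (adjusted p = 0.218).

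**Figure D2:**
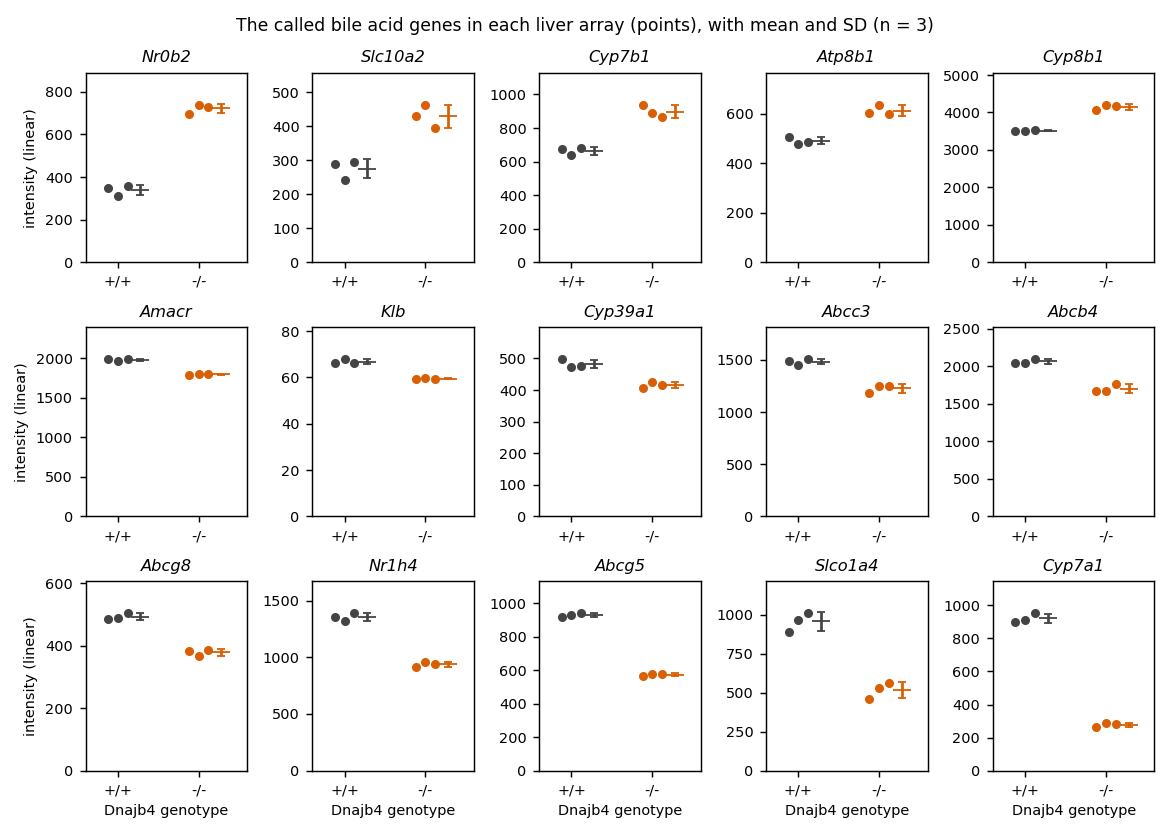
Normalized intensity (y axes, linear from 0) of the 15 called bile acid genes in each Dnajb4+/+ and Dnajb4-/- array (x axes, points), beside genotype means with SD bars (n = 3), ordered from the largest rise to the largest fall. In each of the 15 genes the genotypes do not overlap, as in all 2667 genes called on the array. Cyp7a1 reads 899.5 to 954 against 263 to 288.

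The peroxisomal enzymes that shorten the side chain, and the enzymes that conjugate the product, differed little. Of 4 peroxisomal genes, 1 fell (25% called, against 14.7% of all genes). Amacr, the racemase of the branched side chain, read 1995, 1965 and 1987 in Dnajb4+/+ and 1794, 1802 and 1806 in Dnajb4-/- livers. The groups did not overlap, and the signal fell by 9.15% (log2 difference -0.14, adjusted p = 0.0394), a call that was lost when any 1 of the 6 arrays was left out (adjusted p up to 0.121). Its single probe set did not pass in the fit of all probe sets (adjusted p = 0.0671).
Scp2, the sterol carrier protein that includes the thiolase of this pathway, differed by 0.16 and missed the threshold (adjusted p = 0.0551), with 2172 to 2363 in Dnajb4+/+ and 2532 to 2610 in Dnajb4-/- livers. Of its 4 probe sets, 2 passed as higher (0.45 and 0.24, adjusted p = 0.0192 and 0.0480 over all probe sets). The brightest read 16358 and 16628 and differed by 0.024. Acox2, the oxidase of the branched side chain, differed by 0.049 (95% interval -0.04 to 0.14) and Hsd17b4, the bifunctional enzyme, by 0.016 (95% interval -0.07 to 0.10). The 2 probe sets of Hsd17b4 differed by -0.12 and 0.15, neither past the test.
Of the conjugation genes, Slc27a5, the bile acid CoA ligase, read 7897 to 8006 and 7692 to 7923, with overlapping groups and a difference of -0.023 (95% interval -0.11 to 0.06). Baat, which joins bile acids to taurine or glycine, differed by 0.13 (adjusted p = 0.174).

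At the canalicular membrane, 3 of 6 genes fell and 1 rose (66.7% called, against 14.7% of all genes). All 6 had genotypes that did not overlap. Over the list, 26 of 36 genes did not overlap, where 35.5% of all genes did so. The 26 include all 15 called genes, as every gene called on the array had genotypes that did not overlap. The share without overlap among genes as bright as these was not computed. The sterol exporter is a heterodimer of Abcg5 and Abcg8, and both of its genes fell. Abcg5 read 920.4, 929 and 941 in Dnajb4+/+ and 566, 576 and 579 in Dnajb4-/- livers. Abcg8 read 485, 488 and 505 against 382, 366 and 387. The log2 differences were -0.70 (SE 0.04, adjusted p = 5.42e-05 from limma) and -0.38 (SE 0.04, adjusted p = 0.00156).
The log2 ratio of Abcg5 to Abcg8 within an array differed by -0.32 between the genotypes, a difference that 3 arrays against 3 cannot bring past the threshold (exact permutation test, p = 0.1, adjusted p = 0.125). Each gene has 1 probe set, and these genes share the divergent promoter region shown above.
Abcb4, the phosphatidylcholine floppase of bile, also fell, from 2047, 2052 and 2100 to 1676, 1666 and 1771 (log2 difference -0.28, SE 0.04, adjusted p = 0.00558). Atp8b1, the aminophospholipid flippase of the canalicular membrane, rose from 505, 479 and 486 to 604, 636 and 597 (0.32, SE 0.04, adjusted p = 0.00409). Its subunit Tmem30a, which is not on the list of 37 genes, rose as well, from 593 to 723 (0.29, adjusted p = 0.00586). The log2 ratio of Atp8b1 to Tmem30a differed by 0.035 between the genotypes (exact permutation test, p = 0.4, adjusted p = 0.4).
Abcb11, the bile salt export pump, did not pass the test. It read 2496, 2514 and 2530 in Dnajb4+/+ and 2697, 2774 and 2731 in Dnajb4-/- livers, which do not overlap and differ by 0.12 (95% interval 0.04 to 0.21, adjusted p = 0.0647). Abcc2, the export pump of conjugated organic anions, read 1253 to 1327 and 1158 to 1218 and differed by -0.12 (adjusted p = 0.0995).

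Among the uptake carriers and the pumps of basolateral efflux, the genes that moved were the basolateral carrier Slco1a4, the apical carrier Slc10a2 and the efflux pump Abcc3. The main basolateral uptake carriers for conjugated bile acids, Slc10a1 and Slco1b2, did not pass the test as averages over their probe sets. Slc10a1, the sodium-dependent carrier NTCP, read 7005 to 7201 in Dnajb4+/+ and 6660 to 6944 in Dnajb4-/- livers (log2 difference -0.054, 95% interval -0.14 to 0.04, adjusted p = 0.397). Slco1b2, the sodium-independent carrier of hepatocytes, differed by -0.13 on average (adjusted p = 0.0924). Of its 5 probe sets, 2 fell, from 9403 to 8313 (-0.18, adjusted p = 0.0441 over all probe sets) and from 834 to 657 (-0.35, adjusted p = 0.0110). Another bright one read 8851 and 8021 and missed the threshold (-0.14, adjusted p = 0.0703), and 2 read 17.8 to 18.3 in both genotypes. Averaging in these 2 dim ones understates the change. Slco1b2 passed as lower with its brightest probe set, with linear averages and without dim probe sets.
Slco1a4, an organic anion carrier known to be higher in female mouse liver, read 892, 969 and 1011 in Dnajb4+/+ livers and 458, 531 and 559 in Dnajb4-/- livers. The fall was 1.86-fold (log2 difference -0.89, SE 0.08, adjusted p = 8.67e-04). Slco1a1, also on chromosome 6 and known to be higher in male liver, read 3379 to 3508 and 3727 to 3783 (0.12, adjusted p = 0.0675). The log2 ratio of Slco1a4 to Slco1a1 differed by -1.02 without overlap (exact permutation test, p = 0.1, adjusted p = 0.125). Xist and the list of female-biased genes fell as well. Slco1a1, on the male-biased list, missed the threshold in the main fit and passed as higher in 7 alternatives. The part of sex in these differences was not tested, as female RNA in the Dnajb4+/+ arrays and the genotype cannot be told apart. Slco2b1, a carrier of sulfated steroids, differed by -0.049 (adjusted p = 0.429).
Slc10a2, the sodium-dependent carrier known from the ileum and from bile duct cells, read 288, 243 and 295 in Dnajb4+/+ and 429, 463 and 394 in Dnajb4-/- livers. It rose 1.56-fold (log2 difference 0.64, SE 0.09, adjusted p = 0.00458), with the largest SE among the 15 called genes. Markers of bile duct cells summed to 150 to 166 in Dnajb4+/+ and 171 to 176 in Dnajb4-/- livers, with 1 of 6 higher (Sox9, from 24.3 to 32.6). Krt19 read 48.4 and 55.1 and Krt7 22.5 and 22.3 without a call, and their part in the rise of Slc10a2 was not tested. Of 7 ileal markers, Fabp6, the bile acid binding protein of ileum, read 9.89 and 10.4 and the transcription factor Cdx2 23.4 and 24.9, below the array medians. The list also holds genes that liver expresses, and of these Fabp2 fell and Apoa4 rose, with summed values of 4298 to 4390 and 4517 to 4576.
Among the efflux genes, Abcc3, the basolateral pump of glucuronides and bile acids, fell from 1489, 1455 and 1510 to 1182, 1248 and 1251 (-0.28, SE 0.04, adjusted p = 0.00595). The other 3 had overlapping groups and did not pass. Abcc4 read 52.5 to 66.5 in all arrays, and Slc51a and Slc51b, the subunits of the bile acid transporter OST, read 34.9 to 38.8 and 29.6 to 35.7 with differences of 0.056 and 0.060.

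The average over probe sets hid part of the pattern. Of the 63 probe sets, 23 passed the test (10 higher and 13 lower), against 13.5% of all 34945 probe sets. The share among probe sets as bright as these was not computed. In 7 of the 15 genes with more than 1 probe set, some passed and others did not, and in none did probe sets pass in opposite directions. Of the 63 probe sets, 9 read under 20 in both genotypes. The probe set of Fgfr4 that passed, from 10.6 to 13.5 (0.34, adjusted p = 0.0139), is one of these, whereas its brightest read 321 and 315.

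**Figure D3:**
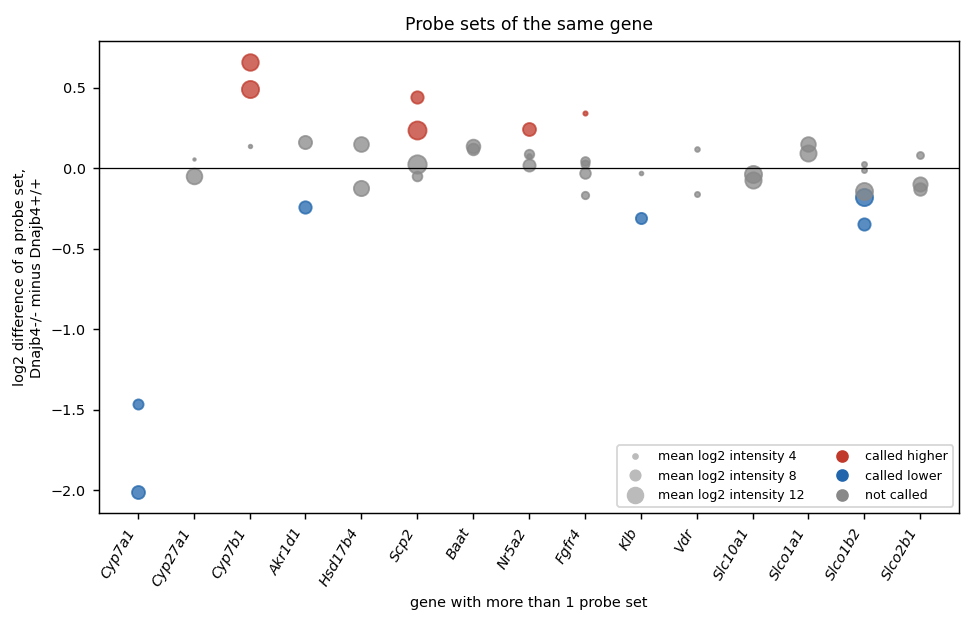
Log2 difference (y axis, Dnajb4-/- minus Dnajb4+/+) of every probe set of the 15 bile acid genes with more than 1 (x axis), with larger points for brighter probe sets and colour for the call over all probe sets. Both Cyp7a1 probe sets lie at -1.46 or lower, and the probe sets of Akr1d1 and Hsd17b4 lie on both sides of 0.

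Beyond the 37 genes, 50 of 54 further genes of the pathway were measured, and 6 rose and 14 fell. This is 40% called, against 14.7% of all genes and 30.8% of those in the upper quartile of signal. Those calls lay mostly among regulators, where 3 of 19 rose and 9 fell (63.2% called). The regulators include Dbp and Nr1d1, which are also on the clock list, and Bcl6, which is also on the male-biased list. Dbp, a clock factor known to bind the Cyp7a1 promoter, fell from 1722 to 208 (log2 difference -3.05, adjusted p = 1.59e-07 from limma). Bcl6, a repressor known to be higher in male liver, rose from 63.2 to 137 (1.12, adjusted p = 2.62e-05). Ppargc1a, a coactivator of nuclear receptors, differed by -0.74 (adjusted p = 3.57e-04), and Nr1i3, the xenobiotic receptor CAR, by -0.73 (adjusted p = 1.35e-04). Nr1d1, the clock repressor REV-ERB alpha, fell by 0.37 and Foxa2, a forkhead factor of liver, rose by 0.35. Cyp7a1 is known to vary over the day, and 17 of 18 clock genes were called; their part in the difference of Cyp7a1 was not tested. Fgf15, the ileal hormone, read 42.3 and 41.6 (adjusted p = 0.816).
Of 14 synthesis genes outside the list 2 were called, both lower. This is 14.3%, near the 14.7% of all genes. These were Stard5, a cholesterol carrier (-0.24, adjusted p = 0.00993), and Slc27a2, a very long chain acyl-CoA synthetase (-0.19, adjusted p = 0.0135). Cyp2c70, which makes the muricholic acids of mice, differed by 0.13 (adjusted p = 0.0528).
Of 17 further genes of transport, 3 rose and 3 fell. This is 35.3% called, against 14.7% of all genes and 30.8% of those in the upper quartile of signal. Abcb1a, an efflux pump, fell from 24.1 to 17.1 (-0.49, adjusted p = 0.0163), with both means already below the array medians. Slc47a1, a cation extruder, fell by 0.41 (adjusted p = 9.57e-04) and Slc9a3r1, a scaffold of apical membrane proteins, by 0.23 (adjusted p = 0.0104). Abcg2, an efflux pump, rose by 0.34 (adjusted p = 0.00175) beside Tmem30a. Slco1a5 passed as well at values of 9.40 and 11.4, where a difference of 0.27 is uncertain.

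The size and direction of the largest differences did not hinge on the way of processing, whereas several small ones did. Of the 15 called genes, 12 kept their call in each of up to 17 alternatives: Cyp7a1, Cyp8b1, Cyp7b1, Nr1h4, Nr0b2, Abcb4, Abcg5, Abcg8, Atp8b1, Slc10a2, Slco1a4 and Abcc3. Cyp39a1, Amacr and Klb lost it in at least 4. Of the 21 others, 7 passed in at least 4 alternatives, namely Hsd3b7, Scp2, Nr5a2, Abcb11 and Slco1a1 as higher and Abcc2 and Slco1b2 as lower. With arrays centred on their brighter probe sets the split was 9 higher and 8 lower, and with quantile normalization 9 higher and 10 lower.

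**Figure D4:**
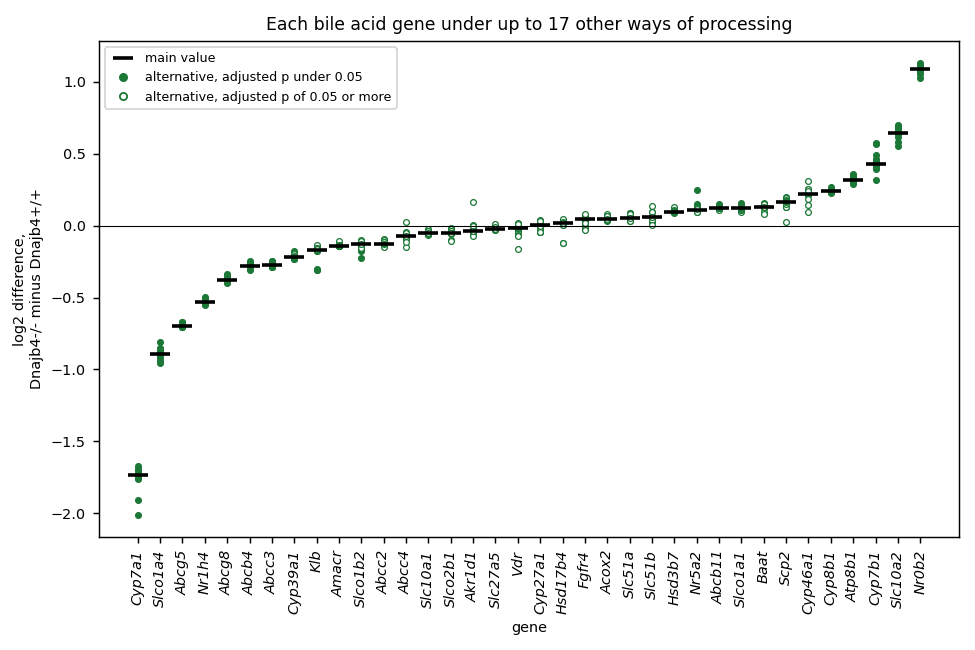
Log2 difference (y axis, Dnajb4-/- minus Dnajb4+/+) of each of the 36 measured genes (x axis, ordered by the main value, black bars) under up to 17 alternatives of normalization, probe set choice, variance model, test and left-out arrays (circles, filled where the adjusted p is under 0.05). Cyp7a1 ranges from -2.01 to -1.67 and Nr0b2 from 1.03 to 1.13, and genes near 0 change sign.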

How the data were processed

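By the labels, liver RNA of 3 Dnajb4+/+ and 3 Dnajb4-/- mice was hybridized to Affymetrix Mouse Genome arrays, 1 per mouse. Per the labels and methods, the authors used GCRMA within GeneSpring and then global median centring (versions not given in the sources used here), and the deposited values are normalized intensities on a linear scale, 1 per probe set, with medians of 31.8 to 32.5 and no detection calls. Of 45101 probe sets, 64 controls and those with several symbols (932) or none (9211) were left out. The study's methods average the probe sets of a gene and name no scale. Here the log2 values of 34945 probe sets were averaged, which gave 18193 genes, with averages on the linear scale as an alternative. Intensities per gene are back-transformed from these averages.

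Genotypes were compared with limma 3.58.1 (lmFit and eBayes, two-sided, no filter on dim genes) in R 4.3.3, with Benjamini-Hochberg adjustment over all genes and a threshold of 0.05. Single probe sets were fitted the same way. Ratios within arrays were compared by exact permutation. Figures were drawn with matplotlib 3.10.9. The number of arrays limits the precision. The members and lists were chosen with earlier results of these data known, so no p adjusted over a list and no set test is given. All 37 members are named, and of each further pathway list at most the 6 most changed called genes. Sex-biased, clock and cell type lists serve as context. Cyp2c70, Fgf15 and single cell type markers fall outside this rule and were named after their values were seen. Promoter windows came from RefSeq for GRCm38.p6. The labels do not say that replicate numbers pair the arrays, and the main fit used no pairing. Deviations of same-numbered arrays correlated at -0.021, -0.14 and 0.0091, which with 3 arrays per genotype cannot show whether a pairing existed. Alternatives were the normalization, centring, filter, gene-level value, offset, variance model, test, replicate block and each left-out array. Leaving out dim probe sets (mean log2 value under 5) was added after seeing the data. On simulated data of 18193 genes with 200 changed, 40% were recovered at a log2 change of 0.25, 94% at 0.5 and 100% at 1, with 13 false calls. The simulation had far fewer changed genes than the 2667 called here, so its recovery need not hold for these data.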

Additional observations from a re-analysis of the deposited data

How the results depend on the processing

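Genes called numbered 2667, and 1529 with the replicate number as a block, in which 12 of the 15 bile acid genes and 15 of 23 probe sets kept their call (Cyp39a1, Amacr and Klb lost it, adjusted p = 0.0683, 0.123 and 0.0848). The labels do not say whether these replicate numbers pair the arrays. Leaving out 1 array gave 1552 to 2009 genes, 12 to 13 bile acid genes, 15 to 20 of their probe sets (15 without Dnajb4+/+ replicate 1) and 15 to 18 further pathway genes (20 in the fit of all arrays). The count of genes moved by over 1.5 times in 4 of these fits. It was 1552 without Dnajb4+/+ replicate 1, 1621 without its replicate 3, 1692 without Dnajb4-/- replicate 1 and 1721 without its replicate 2. The number of bile acid genes higher, 5 as reported, was 9 with quantile normalization, centring on brighter probe sets, trend and robust variances, the methods' t-test or without dim probe sets, 8 with linear averages, and 10 among genes above the median signal or with 16 added. These 5 genes were among the calls each time. Trend and robust variances called 36 probe sets. By the methods' t-test, 22 of the 36 genes passed unadjusted and 19 after Benjamini-Hochberg adjustment.

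No called bile acid gene changed sign in any alternative run. Of the uncalled, Cyp27a1 was -0.046 with the brightest probe set, linear averages, no _s_at or _x_at probe sets or no dim probe sets, and -0.016 with 16 added. Akr1d1 was 0.16 with the brightest probe set and 0.0020 with linear averages. Hsd17b4 was -0.12 with the brightest probe set and without _s_at and _x_at probe sets. Slc27a5 was 0.0021 with quantile normalization and 0.0090 with centring on brighter probe sets. Fgfr4 was -0.026, -0.011 and -0.031 with the brightest probe set, linear averages and no dim probe sets. Vdr was 0.013 with centring on brighter probe sets. With 1 array left out, Cyp27a1 ranged from -0.015 to 0.030, Vdr from -0.070 to 0.017 and Abcc4 from -0.15 to 0.024. The causes were not tested.

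No detection calls were used, so values under about the array median carry no statement on expression. Groups of 3 arrays were not screened for outlying arrays.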
